A study of Mus musculus with 12 samples.

Results

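Smo, Sufu, Kif7, Evc, Evc2 and Spop are 6 mouse genes of the machinery that carries a Hedgehog signal from the membrane to the GLI transcription factors. They were chosen by name, out of 20292 protein-coding genes analysed. For each gene the H3K27ac peaks and GLI1 binding sites in the gene body and in 50000 bp on each side were taken, in coordinates of the mouse build mm10. The 6 windows held 47 of the 67463 H3K27ac intervals of control cells, 60 of the 76437 intervals of GLI1-induced cells, and 7 of the 2605 GLI1 sites. The Evc and Evc2 windows overlap, because the genes lie next to each other, and a region in both was counted once in totals.

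The cells were cardiac progenitors grown from mouse embryonic stem cells of line GLI1-FTA, made in the A2Lox.cre background, and all were harvested on day 6. Control cells were untreated, and dox cells received 500 ng/ml doxycycline for 24 hours from day 5 to overexpress tagged GLI1. Cells of both conditions belong to this 1 line, and the labels do not say whether the 2 samples of a group were separate differentiations. Both conditions were profiled for H3K27ac, the acetylated histone H3 found at active promoters and enhancers, and GLI1 was pulled down through its tag with streptavidin.

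Hedgehog ligands bind the receptor Patched, which otherwise holds back Smoothened, the membrane protein encoded by Smo. Freed Smoothened gathers in the primary cilium, where the paired ciliary proteins Evc and Evc2 help to pass its signal on. The kinesin-like protein Kif7 organises the tip of the cilium and the traffic of GLI proteins through it. Sufu binds GLI proteins in the cytoplasm and holds them inactive. Spop is the substrate adaptor of a cullin ubiquitin ligase that marks GLI proteins for degradation. In the developing heart the pathway acts in progenitors of the second heart field.

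Each H3K27ac list was called on the pooled samples of its condition, so there was 1 value per condition, no spread between replicates and no test between conditions. Values are the authors' fold enrichments, which equal the pileup of fragments at a summit plus 1 over its local background plus 1. Overlapping intervals (1 bp or more) were joined, and a region is named shared, dox-only or control-only by the lists it came from. Shared regions have a log2 ratio, dox over control, of the highest fold enrichment. The median ratio over the 35389 shared regions of the genome, −0.13, was subtracted. Regions with a centred ratio of at least 1 in size are called higher or lower. The 95% intervals given with a ratio cover counting error of the summit pileups only.

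Of the cardiac marker genes examined, 9 of 12 had a control region and 7 of 12 a dox region within 1000 bp of a start, with none at Nkx2-5, Gata4 or Tbx5 in either list. Over all 20292 genes, 10349 had a control region and 10439 a dox region at a start. At the 7 cardiac genes with both, the median log2 ratio of dox over control was −0.32, with 1 above 0. At −1 or lower were 2 (Tnnt2 with −1.35 and Hand2 with −1.05). Over the 9931 genes with a region at a start in both lists the median was 0.14, with 6324 above 0 and 1.93% at −1 or lower. Regions were found at 1 of 5 pluripotency genes in each list and at 0 of 4 neural genes. In the dox list alone they were found at 2 of 5 endoderm and 2 of 4 mesoderm genes, against 2.50% of all genes. These endoderm genes were Foxa2 and Ttr, with 2 GLI1 sites each in their windows. The mesoderm genes were Pdgfra with 1 site and Kdr with 0. At least 1 site lay in the window of 13.5% of all genes. Of 4 endothelial and blood genes, 1 had a control and 3 a dox region. Whether these regions come from such cells was not tested, nor was the part of such cells in the values below.

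The genes differed widely in how much H3K27ac their transcription starts carried. Smo had the most, Sufu and Spop were intermediate, Evc2 was low, Kif7 had a weak region in control cells alone, and Evc had none. The 250 bases before the starts of 4 of these genes, without Evc and Evc2, are shown. They come from RefSeq in the build GRCm38.p6, whose main chromosomes have the coordinates of mm10, and are given 5′ to 3′ along the gene. Capitals mark CCACCC or its reverse complement GGGTGG, the core of the motif GACCACCCA that GLI factors bind.
Smo (chr6:29735247-29735496, plus strand): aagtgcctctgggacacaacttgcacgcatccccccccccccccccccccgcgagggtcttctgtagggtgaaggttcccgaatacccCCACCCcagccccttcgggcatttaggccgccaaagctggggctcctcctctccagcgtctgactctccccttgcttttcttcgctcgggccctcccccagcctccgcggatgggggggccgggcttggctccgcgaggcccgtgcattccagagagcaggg
Sufu (chr19:46396646-46396895, plus strand): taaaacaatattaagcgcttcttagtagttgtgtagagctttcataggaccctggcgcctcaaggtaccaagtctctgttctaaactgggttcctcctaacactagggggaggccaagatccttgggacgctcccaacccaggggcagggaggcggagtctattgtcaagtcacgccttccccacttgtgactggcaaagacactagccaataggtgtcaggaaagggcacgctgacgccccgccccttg
Kif7 (chr7:79715708-79715957, minus strand): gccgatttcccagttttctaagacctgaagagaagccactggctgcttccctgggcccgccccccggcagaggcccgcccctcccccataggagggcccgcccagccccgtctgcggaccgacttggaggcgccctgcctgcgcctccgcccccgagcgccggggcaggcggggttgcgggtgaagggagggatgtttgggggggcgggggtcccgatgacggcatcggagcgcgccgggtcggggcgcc
Spop (chr11:95413833-95414082, plus strand): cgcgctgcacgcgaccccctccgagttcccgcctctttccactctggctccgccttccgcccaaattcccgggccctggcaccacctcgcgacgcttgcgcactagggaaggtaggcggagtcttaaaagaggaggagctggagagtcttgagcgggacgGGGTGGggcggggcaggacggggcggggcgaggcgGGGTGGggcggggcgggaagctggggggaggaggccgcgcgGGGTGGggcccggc
The core was found once before the Smo start, beginning at position −162, and 3 times before the Spop start, at positions −90, −55 and −14. It was absent from these letters at Sufu, Kif7, Evc and Evc2, and the full 9 letters on either strand were absent at the 6 genes. Among all 32851 RefSeq windows of this length, 28.1% held the core and 0.225% the full motif on either strand. CpG dinucleotides numbered 27 before Spop, 25 before Kif7, 15 before Smo, 11 before Evc and before Evc2, and 8 before Sufu, against a median of 6 over all windows. Kif7 was thus close to Spop in CpG number, with far less H3K27ac. No GLI1 site lay in any of these 6 stretches.

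At the start of Smo (chromosome 6, 29735497 to 29761366, plus strand) the control list had a fold enrichment of 28.4 and the dox list 33.1. These levels lay at the 87.9th and 92.6th percentile of protein-coding genes with a region at a start. The centred log2 ratio was 0.35 (95% counting interval −0.00016 to 0.71), a difference at the edge of counting error. The ratio was −0.87 by the mean fold enrichment. This is the mean over the summits of an interval, weighted by width where a list had several intervals in a region. It is not a mean of signal over the region, and weak summits lower it. Here the dox interval counts 3 summits (33.1, 5.40 and 3.89) and the control interval 1 (28.4). A control-only region of fold enrichment 4.57 lay 233 bp upstream of the start.

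Evc2 (chromosome 5, 37338478 to 37425055, plus strand) and Evc (37288970 to 37336947, minus strand) are transcribed away from each other. A shared region over the Evc2 start (37337933 to 37338982) had 6.53 in control against 5.40 in dox, with a log2 ratio of −0.14 (−1.02 to 0.74), or 0.18 by the mean fold enrichment. Both values lay low among genes with a region at a start, at the 18.7th and 14.5th percentile. This region lay 1052 bp upstream of the annotated Evc start, so Evc had no region within 1000 bp of its start in either list, as had 46.5% of all genes.

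Kif7 (chromosome 7, 79698098 to 79715772, minus strand) had a small control-only region at its start, of fold enrichment 3.66, from a pileup of 13 fragments and a background of 2.83. This is close to the median of all control-only regions, also 3.66. Of all genes, 2.06% had a region at the start in control alone and 2.50% in dox alone.

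Sufu (chromosome 19, 46396896 to 46488804, plus strand) had 12.3 in control and 16.0 in dox cells at its start. The log2 ratio was 0.50 (0.055 to 0.98), or −0.17 by the mean fold enrichment. At the start of Spop (chromosome 11, 95414083 to 95493410, plus strand) the values were 15.7 in control and 26.6 in dox. Its ratio of 0.89 (0.48 to 1.33), or 0.40 by the mean fold enrichment, was the highest of the 4 genes measured in both lists. By the summit pileups it was 0.59, below the 0.64 of Sufu. The highest summits lay at different places, 1.006 kb from the start in control and 0.380 kb in dox. Near 1.0 kb the values were 15.7 in control and 15.2 in dox, and near 0.38 kb they were 13.1 and 26.6. The ratio of 0.89 lay at the 94.6th percentile of genes with a region at the start in both lists, whose median ratio was 0.14. The ratios of Sufu, Smo and Evc2 lay at the 80.3rd, 69.0th and 25.4th percentile. None of the 4 reached the limit of 1, which 3.56% of genes with a region at the start in both lists did, and 1.93% were at −1 or lower.

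**Figure D1:**
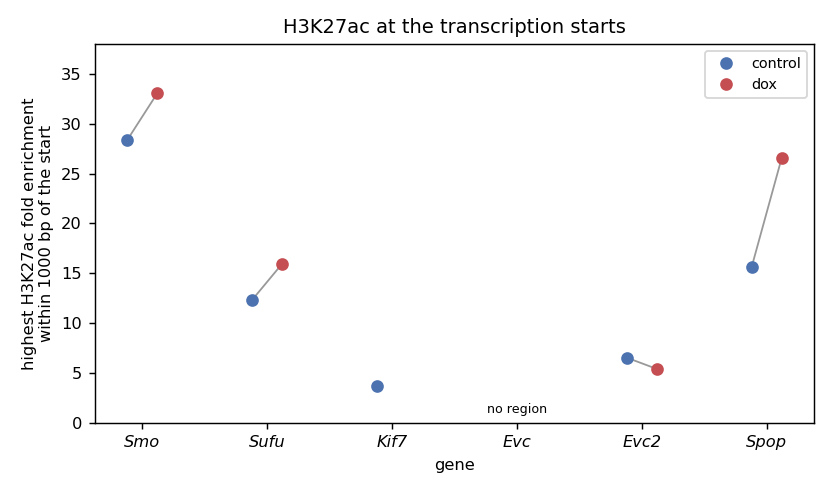
Highest H3K27ac fold enrichment (vertical axis) within 1000 bp of the transcription start of each gene (horizontal axis) in the pooled control and dox lists, 1 point per list, with no replicate error. Smo stands highest at 28.4 and 33.1, Spop shows the widest gap at 15.7 and 26.6, Kif7 has a control point alone and Evc has no region.

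GLI1 sites were present at Sufu and Smo and at none of the other 4 genes. The Sufu window held 6 of the 7 sites, and the Smo window 1. At least 1 site lay in the window of 13.5% of protein-coding genes, and at least 6 in that of 0.0493%, or 10 genes. The nearest site was 166499 bp from Kif7, 222210 bp from Spop, 525432 bp from Evc and 574940 bp from Evc2. Among other Hedgehog genes, the receptor gene Ptch1 had 10 sites, Gli1 4, and Hhip, whose product sequesters ligand, and the co-receptor gene Cdon 1 each, while Gli2, Gli3, Boc and Gas1 had 0.

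The sites of these windows lay in acetylated chromatin of dox cells, 7 of 7 in a dox H3K27ac interval and 4 of 7 in a control interval. Over all 2605 sites the shares were 75% and 25%. The deposited −log10 q of the 7 sites ran from 13.4 to 65.6, with a median of 33.1, close to the 30.8 of all sites. None lay close to a start of these genes, the nearest being 16388 bp upstream of Smo and 25777 bp downstream of the start of Sufu.

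H3K27ac regions were likewise concentrated in the Sufu window, with 41 of the 64 regions of the 6 windows. Sufu had 19 shared, 17 dox-only and 5 control-only regions. Spop had 6, 5 and 1, Smo 2, 1 and 1, Kif7 1, 2 and 1, Evc 2, 0 and 1, and Evc2 2, 0 and 0. Together the windows held 30 shared regions (46.9%, against 37.5% of regions over the genome), 25 dox-only regions (39.1%, against 35.5%) and 9 control-only regions (14.1%, against 27.1%). Most single-list regions were weak. Over the genome, too, the median fold enrichment was 3.51 for dox-only and 3.66 for control-only regions. When peaks under a −log10 q of 10 were left out, 3 regions were in the dox list alone and 4 in the control list alone. The shares over the genome at this limit were not computed. None of the 9 control-only regions reached this limit, the highest being 6.65 at Smo. The 4 were shared regions whose dox peak fell under the limit. Of the 25 dox-only regions, those that held a GLI1 site at Smo (23.7) and at Sufu (90.0) reached it.

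**Figure D2:**
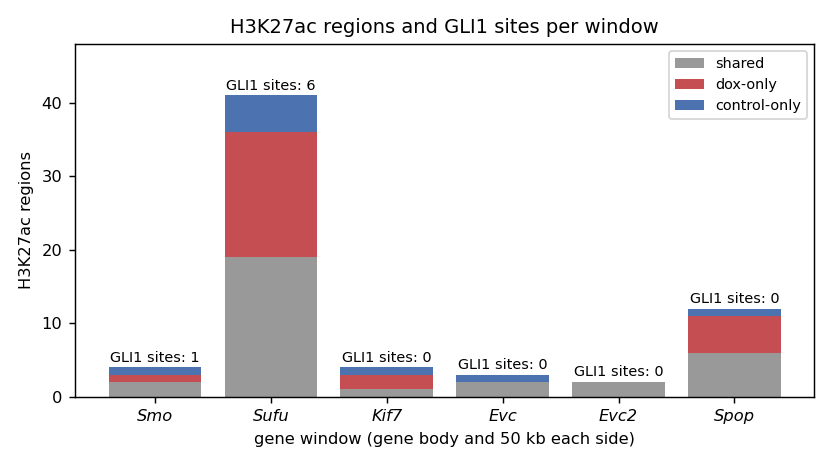
Number of H3K27ac regions (vertical axis) in the window of each gene (horizontal axis), stacked by whether the region is shared, dox-only or control-only, with the number of GLI1 sites above each bar. The Sufu bar reaches 41 regions with 6 sites, and the next, Spop, 12 with 0; windows differ in length from 117675 bp at Kif7 to 191909 bp at Sufu.

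The Sufu window was the richest in H3K27ac of the 6, and it also holds Mfsd13a, Actr1a, Trim8 and part of Arl3. H3K27ac intervals covered 39.7 kb (20.7%) of this window in control and 54.3 kb (28.3%) in dox cells. The ratio was 1.37, against 1.10 for the covered length of the whole genome. In the other windows the covered share was at most 4.15% in either list. The excess of dox-only over control-only regions in the Sufu window, 12, was reached or passed by 1.56% of all genes, with no allowance for window length. The Sufu gene body alone held 12 dox-only and 4 control-only regions.

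The strongest dox-only acetylation at Sufu lay inside the gene around a GLI1 site. A dox-only region of 3372 bp (46421105 to 46424476) began 24209 bp downstream of the start and had a fold enrichment of 17.7, from a pileup of 99 fragments. It ranked 245th of the 33496 dox-only regions of the genome (the upper 0.731%). The GLI1 site in it (46422673 to 46422773, −log10 q 39.6) had dox summits on both sides, of 17.7 (449 bp away) and 13.8, and no control summit lay within 1000 bp. The other 16 dox-only regions of the window were far weaker, from 2.34 up to 4.67 at a region in Trim8 (46505744 to 46506196).

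A second group of sites lay near the far end of Sufu. A shared region of 10958 bp (46475648 to 46486605), joined from 4 control intervals and 1 dox interval, held sites at 46479065 to 46479165 and at 46481654 to 46481754, whose centres were 2589 bp apart. Its highest values were 10.8 in control and 19.8 in dox, and the log2 ratio was 1.01 (0.52 to 1.56). Within 1000 bp of the former site the highest summits were 10.8 in control and 19.3 in dox, and within 1000 bp of the latter 8.77 and 19.8. Around both sites the dox summits thus stood above the control summits, by centred log2 ratios of 0.97 and 1.31.

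The remaining sites of the window lay beyond Sufu. One (46518567 to 46518667), between Trim8 and Arl3, was the weakest of the 7, with a −log10 q of 13.4, and the summits within 1000 bp were 6.10 in control and 5.83 in dox cells (0.07). A region of 7771 bp (46527913 to 46535683) overlapping Arl3, which encodes a ciliary small GTPase, held the other two, 3204 bp apart. The region reached 19.0 in control against 22.6 in dox (0.38, −0.02 to 0.81). At the site inside the control interval (46531484 to 46531584) the nearby summits were 15.0 in control and 22.6 in dox. The strongest site of the 7 (46534688 to 46534788, −log10 q 65.6) lay outside the control interval, with no control summit within 1000 bp and a dox summit of 11.2.

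Acetylation inside Sufu also differed at places without a GLI1 site, in both directions. A shared region of 4424 bp that began 55790 bp from the start (46452686 to 46457109) had 17.3 in control and 32.1 in dox cells, with pileups of 69 and 166 fragments and a log2 ratio of 1.03 (0.62 to 1.46). It had the highest ratio of the 19 shared regions of the window. Farther along, a region of 3011 bp (46469812 to 46472822) had 25.1 in control against 15.8 in dox (−0.54, −0.997 to −0.099). A control-only region was found at 4 places inside the gene, and the 5 of the whole window ran from 2.52 to 3.56, the strongest pair (3.56 and 3.39) lying inside Sufu. At a shared region over the annotated lower end of Trim8, the gene next to Sufu, values were 37.6 and 44.7 (0.38, 0.083 to 0.69).

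**Figure D3:**
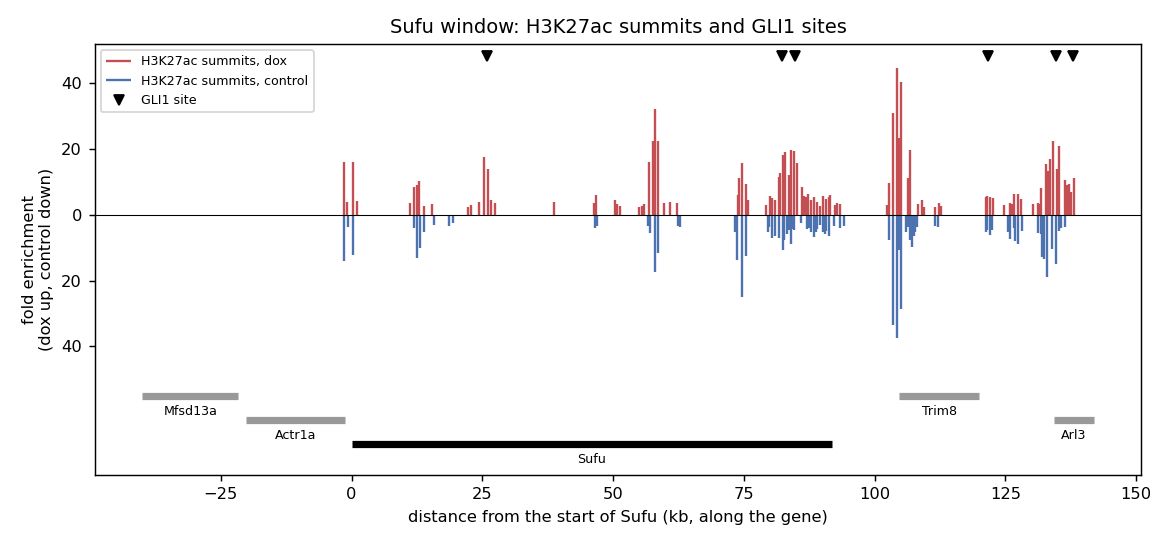
H3K27ac summits of the Sufu window by distance from the Sufu start (horizontal axis, kb along the gene), with fold enrichment in dox cells drawn upward and in control cells downward, GLI1 sites as triangles and protein-coding genes as bars. Dox summits of up to 17.7 at the left-most GLI1 site have no control counterpart, while the summits at Trim8 are tall in both lists.

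Over the 19 shared regions of the Sufu window the median log2 ratio was 0.22, from −0.89 to 1.03, and 13 were above 0. Over the 30 shared regions of the 6 windows it was 0.25, with 19 above 0 (63.3%, against 50% of all shared regions). The limit was passed by 2 regions upward, both inside Sufu, and by 2 downward, against 6.78% and 8.31% of shared regions over the genome. Without centring the counts were 0 and 4. The shares over the genome are for centred ratios and were not computed without centring, so they are no background for these counts. The Sufu regions had 0.89 and 0.88 without centring, so these regions stand just at the limit. Of the 64 regions 5 held a GLI1 site (1.86% of regions over the genome do). Of these, 2 were dox-only and 3 shared, with ratios of 1.01, 0.38 and 0.07.

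**Figure D4:**
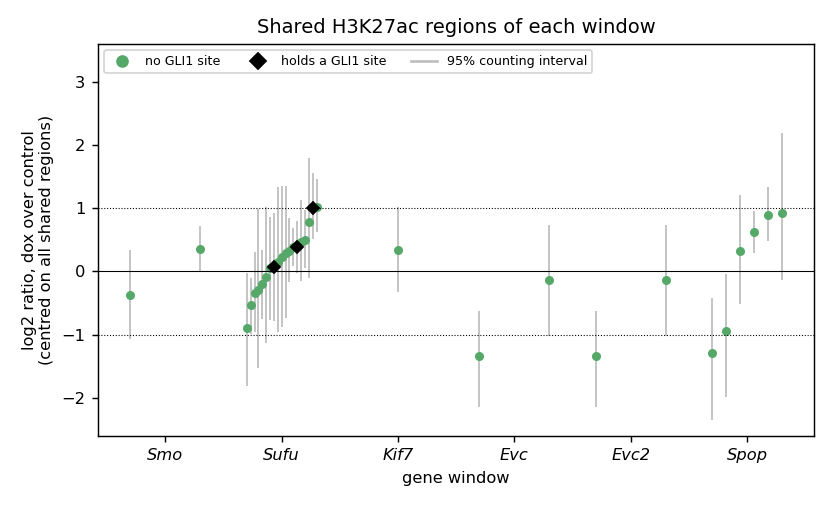
Centred log2 ratio of dox over control fold enrichment (vertical axis) of each shared H3K27ac region by gene window (horizontal axis), with 95% counting intervals and diamonds for regions that hold a GLI1 site. Sufu regions spread from −0.89 to 1.03, and the lowest points are the Evc2 region at −1.33, drawn under Evc and Evc2 alike, and a Spop region at −1.29.

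At Smo the GLI1 site (29719009 to 29719109, −log10 q 35.1) lay between Tspan33 and Smo. It fell in a dox-only region of 808 bp (29718915 to 29719722) with a fold enrichment of 7.59 and a pileup of 42 fragments, which 6.14% of dox-only regions reached. No control summit lay within 1000 bp, and the nearest other GLI1 site of the chromosome was 870875 bp away. The other shared region of the window, at the start of Ahcyl2, had 9.24 in control and 6.53 in dox cells (−0.37, −1.07 to 0.33).

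At Evc2 the lower value was inside the gene. A shared region of 1301 bp that began 26861 bp from the Evc2 start (37365339 to 37366639) had 13.1 in control against 4.72 in dox. The pileups were 49 and 23 fragments and the log2 ratio was −1.33 (−2.15 to −0.62). By the mean fold enrichment the ratio was −1.07. Inside Evc itself no region of either list was found, and the Evc window added a control-only region of 3.33 at the start of Crmp1.

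Upstream of Spop a pair of neighbouring shared regions had less H3K27ac in dox cells. The one that lay 11383 bp from the start (95401947 to 95402700) had 8.67 in control and 3.24 in dox cells, with pileups of 35 and 14 fragments and a log2 ratio of −1.29 (−2.35 to −0.41). The one beside it, 10185 bp from the start, had 7.27 and 3.46 (−0.94, −1.99 to −0.05). Next to them, 9714 bp from the start, lay a weak control-only region of 2.62. These regions differed from control in the direction opposite to the Spop start, where dox was higher. A region over the start of Slc35b1, whose near edge lay 28498 bp upstream, had 26.9 and 37.8 (0.62, 0.30 to 0.95). Inside Spop a shared region had 5.70 and 6.49 (0.32, −0.51 to 1.22), and 2 dox-only regions had 4.33 and 3.02.

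Around Kif7 there was little H3K27ac, 0.764 kb in control and 0.997 kb in dox cells over the whole window. Apart from the start, the window held a shared region at Ticrr, the neighbour whose end overlaps that of Kif7, with 6.91 and 7.94 (0.33, −0.33 to 1.02). Its dox-only regions had 3.46 and 2.29.

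**Figure D5:**
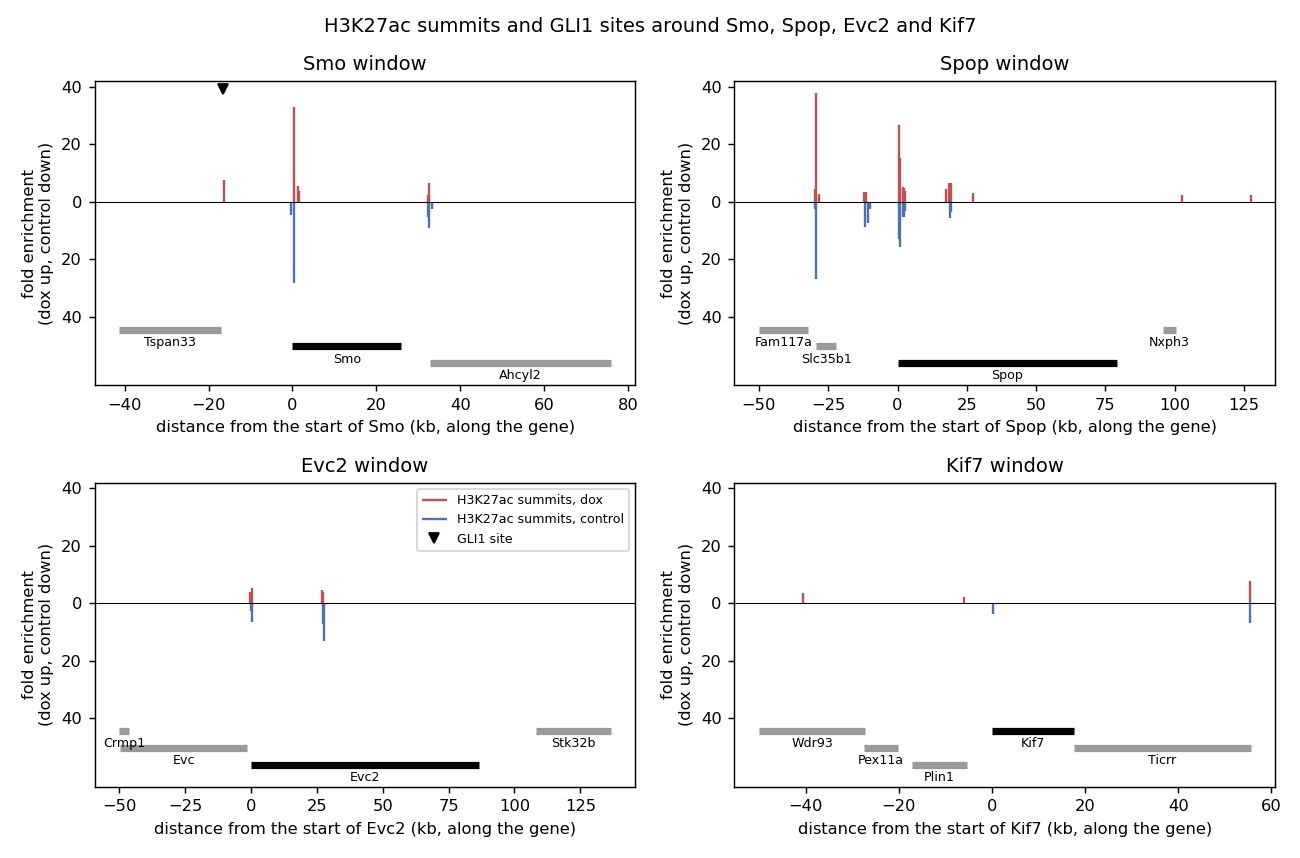
H3K27ac summits around Smo, Spop, Evc2 and Kif7 by distance from the start of each gene (horizontal axes, kb along the gene), with fold enrichment in dox cells drawn upward and in control cells downward, GLI1 sites as triangles and protein-coding genes as bars. A GLI1 site appears in the Smo panel alone, above a dox summit of 7.59 that has no control counterpart; the summits in the region that begins 26861 bp into Evc2 reach 13.1 in control and 4.72 in dox cells.

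Other transducers of the pathway and genes of the cilium mostly had H3K27ac at their starts in both lists. The list held 56 genes for kinases, ubiquitin ligase subunits, intraflagellar transport and the ciliary transition zone, of which 53 were analysed. A region was found in both lists at 49 of them, against 48.9% of all protein-coding genes, in dox alone at 3 (Dync2h1 with 3.89, Tctn2 with 3.27 and Dync2li1 with 3.01) and in control alone at Gpr161, a ciliary receptor gene, with 4.83. The median log2 ratio of the 49 was 0.14, against 0.14 for all 9931 genes with a region in both lists.

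Of the 49 genes measured in both lists, 1 passed the limit upward and 0 downward, against 3.56% and 1.93% of all such genes. It was Mks1, a gene of the transition zone, with 2.97 in control and 7.13 in dox cells (1.39). The control value was weak, below the median of control-only regions, 3.66. Ratios of this list are given without counting intervals. Next came Cul3, which encodes the cullin that Spop works with, with 22.6 and 39.1 (0.92), the kinesin gene Kif3a with 3.26 and 4.97 (0.74), and Skp1, a ubiquitin ligase subunit, with 30.3 and 44.9 (0.70). Lowest were Spopl, the paralogue of Spop, with 16.7 and 9.72 (−0.65), and Mgrn1, a ubiquitin ligase gene, with 27.4 and 16.5 (−0.61). Iqce, which encodes a partner of the Evc complex, followed with 16.6 and 10.2 (−0.57), and the kinase gene Stk36 with 9.36 and 6.27 (−0.45). A GLI1 site lay in the window of 10 of the 53 genes, against 13.5% of all protein-coding genes, with at most 4 per gene, at Tpra1.

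At the start of Gli1 fold enrichment was 9.03 in control against 35.4 in dox, at Hhip 5.15 against 21.6 and at Ptch1 25.0 against 50.7. Their ratios were above 1, and those of Spop, Sufu, Smo and Evc2 were below it. The other 4 receptor, co-receptor and GLI genes measured in both lists had less in dox at their starts, with ratios of −0.89 at Gli3, −0.76 at Boc, −0.54 at Gli2 and −0.38 at Gas1. The dox-only and control-only regions numbered 39 and 0 in the window of Ptch1, 17 and 5 at Sufu, and 7 and 0 at Gli1. They numbered 2 and 4 at Hhip, 3 and 6 at Cdon, 5 and 5 at Boc, 0 and 3 at Gas1, 3 and 16 at Gli3, and 4 and 20 at Gli2, so the balance differed in both directions among these genes. With 1 pooled list per condition, these differences between genes were not tested.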

How the data were processed

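H3K27ac and GLI1 chromatin immunoprecipitation libraries of 12 samples (6 groups of 2: H3K27ac, GLI1 pulldown and input, in control and dox cells) lie behind 3 deposited lists. Bowtie2 2.3.2, SAMtools 1.5, MACS2 2.1.1 and build mm10 are named in the submitters' processing notes, with no roles. Per the deposited file names, replicates were pooled and blacklisted and mitochondrial regions removed. The deposited narrowPeak columns hold the fold enrichment, a ratio of pileup plus 1 to local background plus 1, −log10 p and −log10 q, and a score of 10 times −log10 q, which was not used. The lowest deposited −log10 q was 1.31 (control) and 1.33 (dox). GLI1 sites are the authors' windows of 101 bp with −log10 q, named as replicated and holding a Gli motif; how this was judged is not given in the sources used here. Lists of the control GLI1 pulldown and the inputs were not analysed here.

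Reads per library are unknown. Whole-number pileups that return fold enrichment and −log10 p within 0.01 were recovered for 99.96% of control and 99.92% of dox summits, with uniform backgrounds of 2.83 and 3.63 (ratio 1.28). Intervals of 95% are exact binomial intervals of the 2 pileups with backgrounds held fixed, for counting error only, since reads are not independent molecules. Genes and starts came from RefSeq tables (GRCm38.p6), which give no exons. Where a gene had no start entry (4013 genes) both annotated ends were used. Genes at stretches with skipped peak numbers were left out (1595 of 21887), and the 6 windows held 0 such stretches. Recovery and merging were tested on simulated data (Python 3.11.15, scipy 1.17.1).

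Named were all 6 genes, every region of theirs that held a GLI1 site or passed the limit, the strongest at starts, the 2 strongest dox-only and control-only regions per window, and of the transducer list the 4 highest, the 4 lowest and those in 1 list alone. Others were chosen after their values were seen. The genes and lists were chosen with earlier results of these data known. Alternatives changed the window, peak threshold, overlap, centring, value of a region and place of the start.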

Additional observations from a re-analysis of the deposited data

How the results depend on the processing

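No paired analysis was possible because each list pools the replicates of a condition, and for the same reason no replicate could be left out. Of the main counts and medians under all alternatives, 60 values stayed close to the reported one (counts within 1.5 times, medians within an order-statistic interval or, for the starts, within the range of the 4 genes) and 26 did not. The range for the starts, −0.14 to 0.89, was too wide to show a change. Their median went from 0.43 to 0.0063 by the mean fold enrichment and was still counted as close. Shares over the genome were not computed under the alternatives. With 10000 bp on each side there were 17 shared and 16 dox-only regions and 3 GLI1 sites, and 1 region was at −1 or lower. With the gene body alone there were 13 shared, 14 dox-only and 5 control-only regions, 3 sites and 1 region at −1 or lower. With 100000 bp there were 47 shared and 17 control-only regions. When peaks under a −log10 q of 5 were left out, 10 regions were in the dox list alone, 4 in the control list alone, and 1 shared region passed the limit in each direction. Under a limit of 10 the numbers were 19 shared, 3 dox alone and 4 control alone, and 0 shared regions passed in either direction. Fewer peaks remain in these settings by construction, and the ratios were centred again on the shared regions that remained. The Sufu regions at 1.03 and 1.01 stayed shared. Their ratios were 1.01 and 0.997 under the limit of 5, and 0.98 and 0.96 under that of 10. Without centring 0 shared regions were at 1 or higher and 4 at −1 or lower, and the transducer list had a median of 0.0051. By the width-weighted mean fold enrichment 0 shared regions and 4 transducer genes were at 1 or higher, and within 5000 bp of a start 2 transducer genes were. Leaving out the centring omits the subtraction of −0.13, which lowers every ratio by the same amount. The causes of the differences by the mean fold enrichment and within 5000 bp of a start were not tested. The median ratio of shared regions ran from 0.07, with regions at starts of other genes left out, to 0.32, with the gene body alone. The alternatives of leaving out regions at starts of other genes and of using both annotated gene ends were chosen after seeing the data.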
